A study of Homo sapiens with 8 samples.

Results

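The nuclear-encoded genes of oxidative phosphorylation were examined in SW480, a cell line derived from a human colorectal adenocarcinoma, with and without overexpression of SPOCK1. Members were the protein-coding genes outside the mitochondrial genome whose symbols begin with NDUF, SDHA to SDHD, UQCR, COX followed by a digit, or ATP5. This rule found 112 of the 58735 genes in the count table, of which 103 had enough counts to be tested. By complex they were 46 genes of complex I, 8 of complex II, 9 of complex III, 28 of complex IV and 21 of complex V. The rule reads symbols alone, so subunits and assembly factors with other names, such as CYC1, are not members and are described separately. NDUFA4 and its relative NDUFA4L2 were placed with complex IV, where the NDUFA4 protein is now assigned.

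The study compared SW480 cells stably overexpressing SPOCK1 with a FLAG tag against cells with the vector control, with 4 libraries in each group. The SPOCK1 protein, or testican-1, is a proteoglycan that cells secrete into the matrix around them. Per the labels, the line was infected with lentivirus and then kept under puromycin, an antibiotic that kills cells without the vector, and RNA was extracted in TRIzol. Separate cultures are not mentioned for the 4 libraries of a group, nor is it stated if a line is a pool or 1 clone. The p-values thus cover the spread among these libraries alone, possibly a technical one. Where both lines were selected only once, SPOCK1 and any other difference between the lines cannot be told apart. RNA was measured in bulk, so fewer cells of a kind and less RNA per cell cannot be told apart.

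Oxidative phosphorylation is carried out in the inner mitochondrial membrane. Complex I accepts electrons from NADH and complex II from succinate, complex III passes them to cytochrome c, and complex IV, cytochrome c oxidase, hands them to oxygen. Complexes I, III and IV pump protons, and complex V, the ATP synthase, uses the proton gradient to make ATP. Most subunits are encoded in the nucleus, and a few core subunits of complexes I, III, IV and V are encoded by mitochondrial DNA. Nuclear respiratory factor 1 (NRF1) and the ETS-family factor GABP are known activators of many of the nuclear genes.

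Promoter sequences were taken from RefSeq (GRCh38.p14) as windows of 250 bases before to 50 bases after the annotated start, and 90 of the 112 members had one. Letters of known promoter motifs, which the selection by symbol did not use, were in a minority of these windows, and no test of enrichment was made. The NRF1 motif searched was GCGCA and GCGC with 1 base of any kind between them, on both strands, and it was in 22 of the 90 windows (24.4%), against 11.4% of 10487 windows of protein-coding genes that passed the filter in these cells. The ETS letters CCGGAAG were in 26 member windows (28.9%) and in 19.0% of the comparison windows, and the YY1 letters AAGATGGC in 12 (13.3%) and 5.27%. A TATAAA match was in 8 member windows (8.89%) and in 5.51% of the comparison windows. At least 1 of the NRF1 and ETS matches was in 43 member windows (47.8%, against 27.9%), and no window had the 2 kinds overlapping. The comparison windows are of tested genes, members included, while 5 of the 90 member windows are of untested genes. Among the 85 windows of tested members NRF1 matches were in 24.7% and ETS matches in 30.6%. By complex, NRF1 matches were in 7 of 40 windows of complex I, 4 of 7 of complex II, 4 of 7 of complex III, 3 of 22 of complex IV and 4 of 14 of complex V. Member windows were lower in GC content (median 61.7%) than those of all tested protein-coding genes (65.7%). These are matches of letters, not measured binding.

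To show what these matches look like, the 150 bases before the RefSeq start are printed for 1 member of each complex, 5′ to 3′ on the gene's strand, with NRF1 and ETS matches in capitals. NDUFB4, an accessory subunit of complex I (chr3:120596186-120596335, plus strand), has 1 NRF1 match here of 3 in its window. SDHAF4, an assembly factor of complex II (chr6:70566780-70566929, plus strand), has 1 NRF1 match. UQCR11, a small subunit of complex III (chr19:1605463-1605612, minus strand), has 2 of each kind. COX7B, an accessory subunit of complex IV with the smallest p among the members (chrX:77899318-77899467, plus strand), has neither. ATP5PD, subunit d of the peripheral stalk of complex V (chr17:75046970-75047119, minus strand), has 1 ETS match, which reads as its reverse complement.
NDUFB4: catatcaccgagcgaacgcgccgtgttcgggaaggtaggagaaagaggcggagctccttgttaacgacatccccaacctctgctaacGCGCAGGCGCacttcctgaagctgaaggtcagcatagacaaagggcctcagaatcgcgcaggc
SDHAF4: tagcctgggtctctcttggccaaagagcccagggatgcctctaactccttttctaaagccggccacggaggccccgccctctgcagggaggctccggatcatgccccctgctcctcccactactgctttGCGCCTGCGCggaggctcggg
UQCR11: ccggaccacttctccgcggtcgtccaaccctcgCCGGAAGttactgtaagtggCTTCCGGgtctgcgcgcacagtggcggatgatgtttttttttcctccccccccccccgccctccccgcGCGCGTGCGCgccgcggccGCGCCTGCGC
COX7B: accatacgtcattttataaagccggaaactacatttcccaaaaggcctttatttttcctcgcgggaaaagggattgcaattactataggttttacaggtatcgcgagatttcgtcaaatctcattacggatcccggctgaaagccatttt
ATP5PD: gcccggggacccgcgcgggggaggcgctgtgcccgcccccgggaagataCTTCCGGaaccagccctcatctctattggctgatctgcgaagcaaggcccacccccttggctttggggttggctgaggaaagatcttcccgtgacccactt

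Many members also have the start of a gene on the other strand nearby, on either side of their own start. Of the 112 members, 38 (33.9%) had the start of a protein-coding gene on the other strand within 1000 bases, against 2244 of 12970 tested protein-coding genes (17.3%). Among the 103 tested members the share was 35.9%. Examples are SDHA with CCDC127 (26 bases between the starts), NDUFS6 with the mitochondrial ribosomal protein gene MRPL36 (34 bases) and NDUFB5 with MRPL47 (36 bases). SDHD and TIMM8B, which encodes a chaperone of mitochondrial import, overlap at their starts by 25 bases. The count also takes in pairs that overlap more widely. Examples are COX4I1 with EMC8 (−975 bases, negative for an overlap) and NDUFB8 with HIF1AN (−928 bases). The members lie on 22 chromosomes, with 13 of them on chromosome 19, and so are not a genomic cluster.

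Total counts were 35643585 to 42812951 per library, and the members held 1.05% of them in control library 1, the lowest share, and 1.31% in SPOCK1 library 1, the highest. Mitochondrially encoded genes took 2.83% to 3.69% of the counts. Ribosomal RNA genes took 0.696% to 0.738% in controls and 0.560% to 0.671% in SPOCK1 libraries, without overlap. The part of these shares in the results was not tested. SPOCK1 had 0 to 6 counts in the controls and 6719 to 9712 in the SPOCK1 libraries. Of 10 markers of colorectal epithelium, 7 passed the filter, among them KRT8 (a mean of 8287 CPM, the count scaled to library size, in controls) and EPCAM (219 CPM), while KRT20, CDX1 and CDH17 were each below 0.1 CPM. Of these 7, CDH1, which encodes E-cadherin, fell from 17.8 ± 1.29 to 11.2 ± 1.21 CPM (SD, n = 4 each, edgeR adjusted p 0.00537). VIL1, which encodes villin, had 78.1 ± 3.43 and 64.9 ± 7.68 CPM without overlap between the groups, but did not pass the test (adjusted p 0.197). The part of these markers in the results was not tested. Of 9 markers of blood, stromal, endothelial and liver cells, 3 passed the filter, COL1A1, VWF and ALB, at 0.769, 1.01 and 0.201 CPM in controls, and DCN had no count.

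The members differed widely in level. Levels were put on the TPM scale, computed here from counts and the deposited gene length. For 58724 of the 58735 genes this length is that of all annotated exons together, not that of the transcript expressed. A gene with many annotated exons can thus get too low a TPM, and ranks between genes are uncertain to that extent. The 77 subunits had a median of 108 TPM in the controls. The 22 assembly factors, which build the complexes and are not part of them, had a median of 21.3 TPM, and the 10 isoforms and copies a median of 0.186 TPM. The highest member was ATP5F1B, the catalytic beta subunit of ATP synthase, at 2716 ± 121 TPM (SD, n = 4). In complex IV the leaders were COX6B1 at 860 ± 49.2 TPM and COX8A at 835 ± 25.01 TPM, 2 small accessory subunits. In complex I they were NDUFB7 at 720 ± 69.7 TPM and NDUFB11 at 502 ± 33.3 TPM, both of the membrane arm. The leaders of complex III were UQCRC1, a core protein, at 632 ± 44.4 TPM, and UQCRQ at 347 ± 23.5 TPM. COX6B1 and COX8A lay within their SDs of each other, while the 2 leaders of complex I and those of complex III differed by more than theirs. SDHB and SDHA, which carry the iron-sulfur clusters and the flavin of complex II, stood at 156 ± 6.68 and 125 ± 4.86 TPM. ATP5F1D, the delta subunit of ATP synthase, was second in complex V at 336 ± 26.5 TPM. COX8A shares 34.5% of its exonic bases with AP000721.1 on the same strand and NDUFB11 44.9% with RBM10 on the other strand, and since the strand setting is not given their counts are uncertain to that extent.

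**Figure D1:**
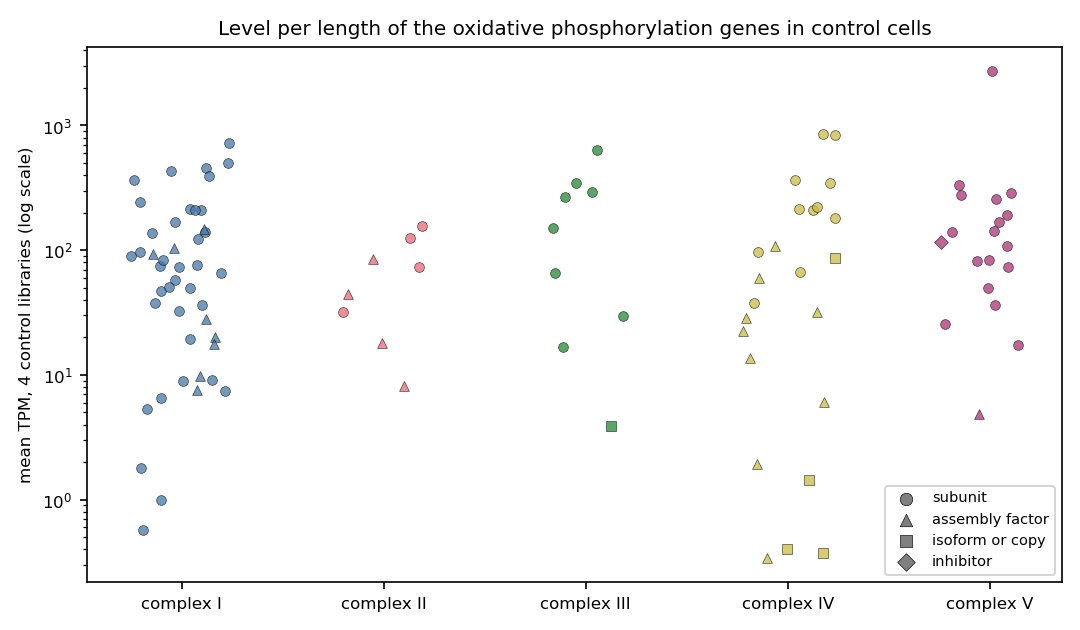
Mean level per gene in the 4 control libraries, in TPM on a log scale, for members of complexes I to V, with circles for subunits, triangles for assembly factors, squares for isoforms or copies and a diamond for the inhibitor ATP5IF1 (genes with no counts are not drawn, and sideways scatter has no meaning). ATP5F1B stands highest at 2716 TPM, and the median is 108 TPM for subunits and 21.3 TPM for assembly factors.

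No member passed the test between SPOCK1 and control libraries. Of the 103 tested members, 0 rose and 0 fell at an adjusted p under 0.05 (edgeR quasi-likelihood test), where 1.04% of all 15790 genes tested were called in either direction, 0.247% as rises and 0.798% as falls. DESeq2 and limma-voom also called 0 members, where they called 2.39% and 0.944% of all genes. The smallest adjusted p among members was 0.301 (COX7B). An unadjusted p under 0.05 was found for 4 members, COX7B, SDHB, ATP5MD and SDHAF3, all higher with SPOCK1, where 13.7% of all genes had such a p in either direction and 5.48% were higher. DESeq2 and limma-voom each gave 5 members under that limit, against 14% and 13.7% of all genes. All 4 libraries of SPOCK1 lay above all 4 controls for 4 members, COX10, UQCRFS1, NDUFAF8 and NDUFAF1, in a table where this held for 3.43% of genes. The reverse held for 0 members and for 4.8% of genes.

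Small differences nevertheless pointed 1 way. The log2 fold change, SPOCK1 against control, was above 0 for 93 of the 103 members and for 49.2% of all genes tested. Its median was 0.11 over the members and −0.00 over all genes, and members ranged from −0.37 (COX6B2) to 0.46 (NDUFA13). For 90 of 103 members the 95% interval of the fold lay within 1.5-fold in both directions, as it did for 10396 of the 15790 genes. Larger changes lay outside the interval for these 90. The median stayed between 0.10 and 0.11 under every other library scaling tried.

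**Figure D2:**
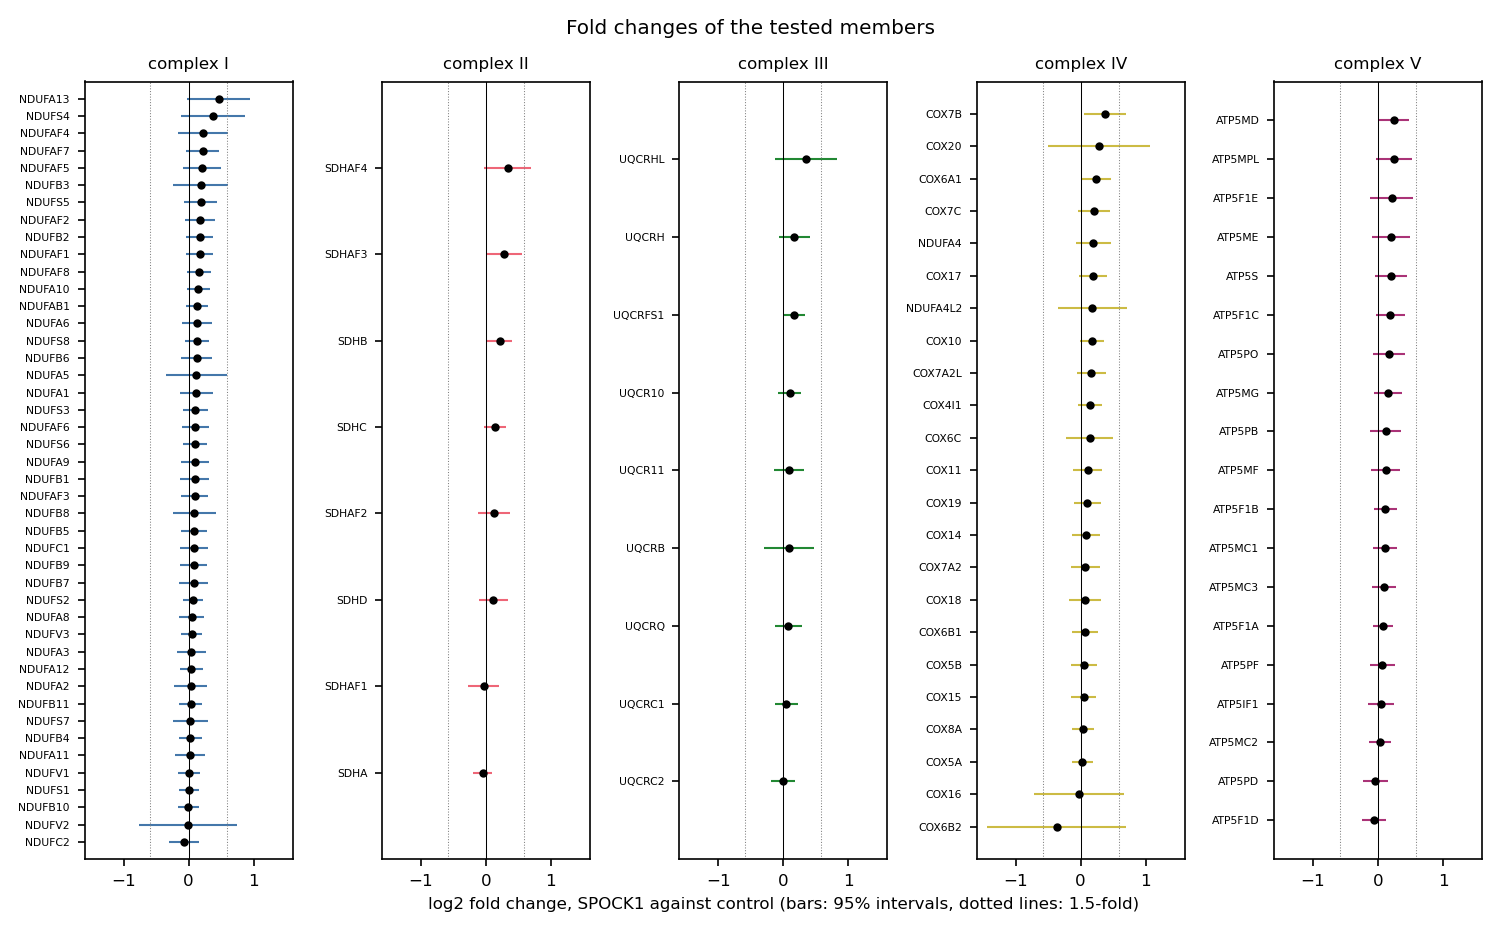
Log2 fold change of each tested member, SPOCK1 against control, in a panel for each complex, with points for estimates and bars for 95% intervals from the edgeR fit (dotted lines mark 1.5-fold in either direction). Most points lie just right of 0, from −0.37 to 0.46, and most bars reach across 0.

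The sign was shared by all 5 complexes. The median log2 fold change was 0.09 in complex I (41 of 44 above 0), 0.13 in complex II (6 of 8), 0.09 in complex III (8 of 9), 0.11 in complex IV (21 of 23) and 0.12 in complex V (17 of 19). By role it was 0.08 for 19 subunits classed here as catalytic core (15 above 0). It was 0.10 for 50 accessory subunits (48 above 0) and 0.17 for 22 assembly factors (20 above 0). The core class includes the core proteins UQCRC1 and UQCRC2 of complex III, and CYC1 is not in it. Summed per length over all subunits of a complex, RNA differed little. Complex I subunits summed to 5245 ± 233 TPM in controls and 5336 ± 295 TPM with SPOCK1 (SD, n = 4 each). Complex II subunits summed to 387 ± 6.21 and 401 ± 22.5 TPM, and complex III subunits to 1805 ± 56.7 and 1852 ± 107 TPM. Complex IV subunits summed to 3438 ± 141 and 3523 ± 283 TPM, and complex V subunits to 4992 ± 181 and 5193 ± 356 TPM. In none of the 5 did the means differ by more than the larger SD.

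A single library in each group carried most of the common sign. Each member's log2 CPM was set against its own mean over the 8 libraries, and the median of these deviations was taken in every library. The control libraries 1 to 4 had −0.23, −0.03, −0.01 and 0.01. SPOCK1 libraries 1 to 4 had 0.22, 0.05, −0.04 and −0.05. Control library 1 was thus low, SPOCK1 library 1 was high, and the other 6 libraries lay between −0.05 and 0.05, with both groups mixed. SPOCK1 library 1 held the highest value of 71 of the 103 members (68.9%), against 21.4% of all genes, and control library 1 the lowest value of 70 (68.0%), against 17.6% of all genes. Every complex had its lowest median in control library 1, from −0.24 in complex I to −0.18 in complex IV, and its highest in SPOCK1 library 1, from 0.175 in complex I to 0.26 in complex III.

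**Figure D3:**
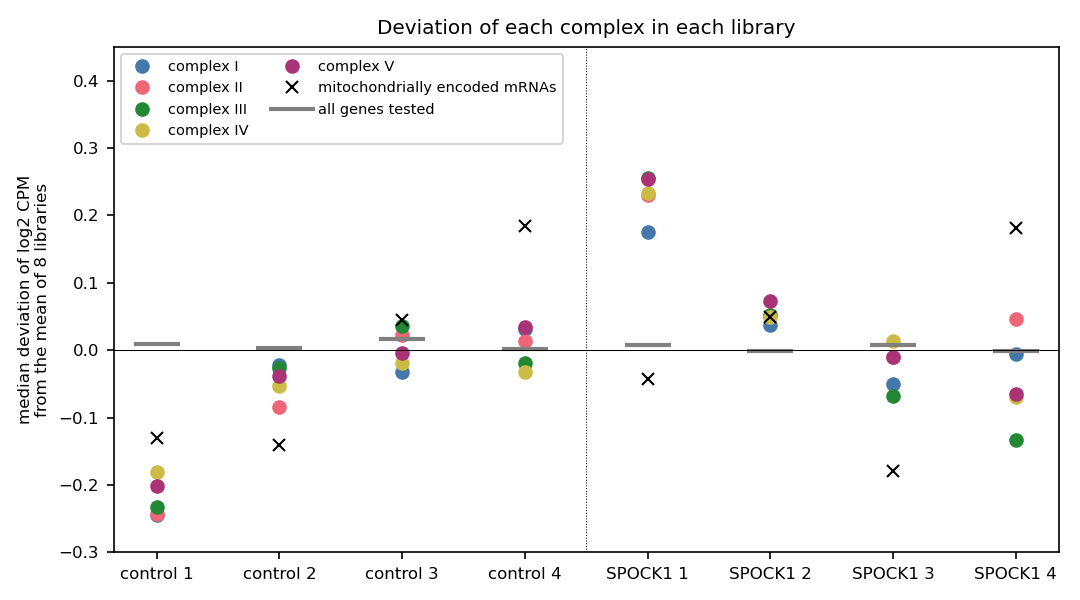
Median deviation of log2 CPM from each gene's mean over 8 libraries, for the tested members of each complex (coloured points), the 13 mitochondrially encoded mRNAs (crosses) and all genes tested (grey bars), by library. All 5 complexes sit lowest in control library 1 and highest in SPOCK1 library 1, while all genes stay near 0.

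The common sign was weaker without 1 of these libraries and went without both. They are the lowest control and the highest SPOCK1 library, so leaving them out lowers the difference by construction. The fits without both, or with 2 libraries per group, were chosen after these values were seen and are descriptions, not tests. The median log2 fold change of the members was 0.06 without control library 1 (79 of 103 above 0). Without SPOCK1 library 1 the median was 0.04 (76 above 0). With library 1 of both groups left out it was −0.01, with 50 of 103 members above 0, 0 at an unadjusted p under 0.05 (10.9% of all genes) and 0 called (0.714%). With only libraries 2 and 4 of each group it was 0.01 (55 above 0), and with only libraries 1 and 3 it was 0.21 (98 above 0). Leaving out any other single library gave 0.11 to 0.14. None of the 4 members at an unadjusted p under 0.05 stayed there without control library 1, where 11.4% of all genes were under that limit. The count was 15 of 103 without control library 3 (13.1% of all genes) and 20 without SPOCK1 library 4 (17.5%). No member was called in these 3 fits, which called 0.691%, 0.778% and 1.47% of all genes.

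**Figure D4:**
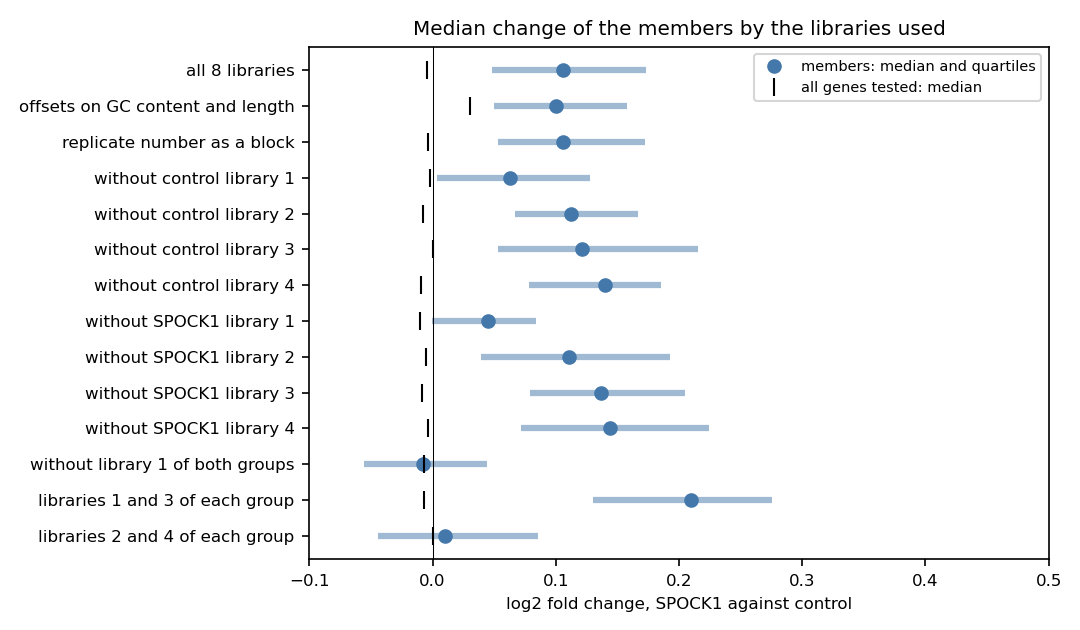
Median (points) and quartiles (bars) of the members' log2 fold change, SPOCK1 against control, by the libraries or model used, with the median of all genes tested as a black tick. The point moves from 0.11 with all 8 libraries to −0.01 without library 1 of both groups and to 0.21 with libraries 1 and 3 alone.

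The difference between short and long genes, by deposited gene length, moved with the same libraries. The members are short, with a median gene length of 2540 bases against 4459 for all genes tested, and a median GC content of 47.2% against 49.4%. Over all genes, cut by length into 5 classes of equal size, the median deviation of the shortest class minus that of the longest was −0.25, −0.00, −0.02 and 0.105 in control libraries 1 to 4. It was 0.21, 0.07, −0.05 and 0.03 in SPOCK1 libraries 1 to 4, again lowest in control library 1 and highest in SPOCK1 library 1. The same difference between the lowest and highest of 5 classes by GC content was 0.14, −0.20, 0.16 and −0.24 in controls and 0.28, −0.02, 0.18 and −0.27 in SPOCK1 libraries, in numerical order. With offsets fitted to GC content and length in each library, the members' median was 0.10 beside 0.03 for all genes, with 93 above 0, 11 at an unadjusted p under 0.05 (19.9% of all genes) and 0 called (3.91% of all genes, smallest adjusted p among members 0.0744).

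In complex I, the NADH dehydrogenase, the catalytic core had a median log2 fold change of 0.03 over 7 genes. The 29 tested accessory subunits had 0.09 (27 above 0) and the 8 assembly factors 0.18, all above 0. NDUFAF8, which is needed to keep the assembly enzyme NDUFAF5 stable (chr17:81239239-81241281, plus strand), had 39.3, 43.04, 43.8 and 43.6 CPM in control libraries 1 to 4 and 45.2, 52.1, 46.3 and 46.1 CPM in SPOCK1 libraries 1 to 4. The groups did not overlap, but the difference of 0.16 ± 0.09 (log2 fold change ± SE) had an adjusted p of 0.429. NDUFAF1, an assembly factor of the membrane arm, picked after its values were seen because its groups did not overlap, had 13.97 to 15.5 CPM in controls and 16.0 to 17.7 CPM with SPOCK1, and its difference on the log2 scale was 0.17 ± 0.10 (adjusted p 0.467).

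The largest positive value among all subunits was that of NDUFA13, also known as GRIM-19 (chr19:19515736-19529054, plus strand), at 0.46 ± 0.23 (adjusted p 0.39). NDUFA13 was counted at 1.23, 1.65, 1.37 and 1.51 CPM in controls and at 1.55, 2.57, 1.96 and 1.88 CPM in SPOCK1 libraries. The groups overlapped through SPOCK1 library 1, which here was the lowest of its group. Of its exonic bases, 21.0% are shared with AC011448.1 and YJEFN3 on the same strand. The lowest subunit value was that of NDUFC2, a subunit of the membrane arm, at −0.07 ± 0.11, with 14.2 to 16.0 CPM in controls and 13.3 to 17.1 CPM in SPOCK1 libraries. NDUFB7 had 95.5, 118, 106 and 134 CPM in controls and 135, 118, 103 and 122 CPM with SPOCK1, and its groups overlapped, although SPOCK1 library 1 lay just above the highest control. NDUFB11 likewise spanned 179 to 231 CPM in controls and 205 to 232 CPM in SPOCK1 libraries. Both lay lowest in control library 1.

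Complex II, succinate dehydrogenase, has all 4 subunits encoded in the nucleus. SDHB, the iron-sulfur subunit (chr1:17018722-17054170, minus strand), had 99.9, 113, 117 and 124 CPM in control libraries 1 to 4 and 149, 131, 126 and 118 CPM in SPOCK1 libraries 1 to 4. SPOCK1 library 4 lay below control library 4, and the other 3 SPOCK1 libraries lay above every control. Its log2 fold change was 0.21 ± 0.09, with an unadjusted p of 0.0311 and an adjusted p of 0.316. SDHA, the flavoprotein that oxidises succinate (chr5:218241-256700, plus strand), went the other way by its point estimate, at −0.05 ± 0.07. It had 295, 326, 310 and 309 CPM in controls and 289, 299, 299 and 313 CPM with SPOCK1, and here SPOCK1 library 1 was the lowest of all 8. The gene length deposited for SDHA was 8383 bases and for SDHB 2462 bases. With the offsets on GC content and length the difference of SDHA was 0.00.

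The assembly factors of complex II held the fourth value under 0.05 unadjusted. SDHAF3, which helps to mature SDHB, had 25.9, 29.2, 36.7 and 30.5 CPM in controls and 45.8, 33.2, 39.2 and 30.2 CPM in SPOCK1 libraries. Only SPOCK1 libraries 1 and 3 lay above every control, and the log2 fold change was 0.28 ± 0.13 (adjusted p 0.359). SDHAF4, which binds flavinated SDHA on its way into the complex, had the largest value of any assembly factor, 0.34 ± 0.17 (adjusted p 0.415), at a low level of 2.72 to 4.17 CPM in controls and 3.63 to 5.13 CPM with SPOCK1. SDHAF1, another maturation factor of SDHB, had the lowest, −0.03 ± 0.11, with 23.9 to 30.5 and 22.2 to 29.9 CPM.

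In complex III, cytochrome bc1, UQCRFS1 encodes the Rieske iron-sulfur protein (chr19:29205321-29213541, minus strand). It had 135, 166, 156 and 161 CPM in control libraries and 188, 170, 168 and 167 CPM in SPOCK1 libraries, without overlap between the groups. SPOCK1 libraries 2 to 4 lay close above control library 2, and the log2 fold change was 0.16 ± 0.08 (adjusted p 0.395). UQCRC1, the most abundant subunit, had 531 to 691 CPM in controls and 576 to 649 CPM with SPOCK1, and UQCRQ, which contacts cytochrome b, 128 to 171 and 144 to 185 CPM. UQCRH, the hinge protein that binds cytochrome c1, had 110, 118, 141 and 122 CPM in controls and 175, 133, 129 and 116 CPM with SPOCK1, a log2 fold change of 0.17 ± 0.11 in which only SPOCK1 library 1 stood above every control. Its near-identical copy UQCRHL was counted at 1.21% to 1.76% of UQCRH per length, at 0.35 ± 0.23 (adjusted p 0.517). Reads cannot be assigned with certainty between these 2 genes, and both values are uncertain to that extent.

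In complex IV, all 11 subunits that are not isoforms had values above 0 (median 0.14), from 0.03 to 0.38. COX7B (chrX:77899438-77907373, plus strand) had 49.4, 52.6, 79.6 and 55.3 CPM in control libraries 1 to 4 and 103, 68.6, 72.3 and 63.1 CPM in SPOCK1 libraries 1 to 4. Only SPOCK1 library 1 stood above every control, since control library 3 was higher than the other SPOCK1 libraries. The mean was 59.2 ± 13.8 CPM in controls and 76.9 ± 18.1 CPM with SPOCK1 (SD, n = 4 each). The difference was 0.38 ± 0.15 on the log2 scale, with a 95% interval of 0.05 to 0.70 and an unadjusted p of 0.0258. With no filter beyond 1 count, a fit that called 1.39% of 28782 genes, COX7B was the only member called. Its value was the same 0.38, at an edgeR adjusted p of 0.0105. That fit put 13 of 107 members under an unadjusted p of 0.05, against 4 of 103 in the main fit. The share of all genes under that limit was not computed for it. COX6A1, the widely expressed form of subunit VIa (chr12:120438090-120440742, plus strand), had 31.0, 38.9, 40.4 and 44.3 CPM in controls and 51.9, 45.03, 40.5 and 44.3 CPM with SPOCK1. Its log2 fold change was 0.23 ± 0.11 (adjusted p 0.368).

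COX10, which makes the first step of heme A synthesis for complex IV, was picked after its values were seen for its narrow spread. It had 29.8, 28.7, 30.9 and 29.6 CPM in controls and 33.8, 33.1, 32.8 and 34.4 CPM with SPOCK1. The groups did not overlap, and neither library 1 stood out. The log2 fold change was 0.17 ± 0.08, with an unadjusted p of 0.0539 and an adjusted p of 0.374. The 9 assembly factors of complex IV had a median of 0.10 (8 above 0). The subunits of complex IV with the highest TPM, COX6B1 and COX8A, had log2 fold changes of 0.07 ± 0.09 and 0.04 ± 0.08. In controls against SPOCK1 libraries they had 205 to 266 against 224 to 284 CPM, and 112 to 135 against 121 to 136 CPM. That rank rests on gene length, 507 bases for COX8A and 4792 for COX4I1. COX4I1 had more counts in controls (9925 to 13552) than COX8A (4279 to 5550).

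**Figure D5:**
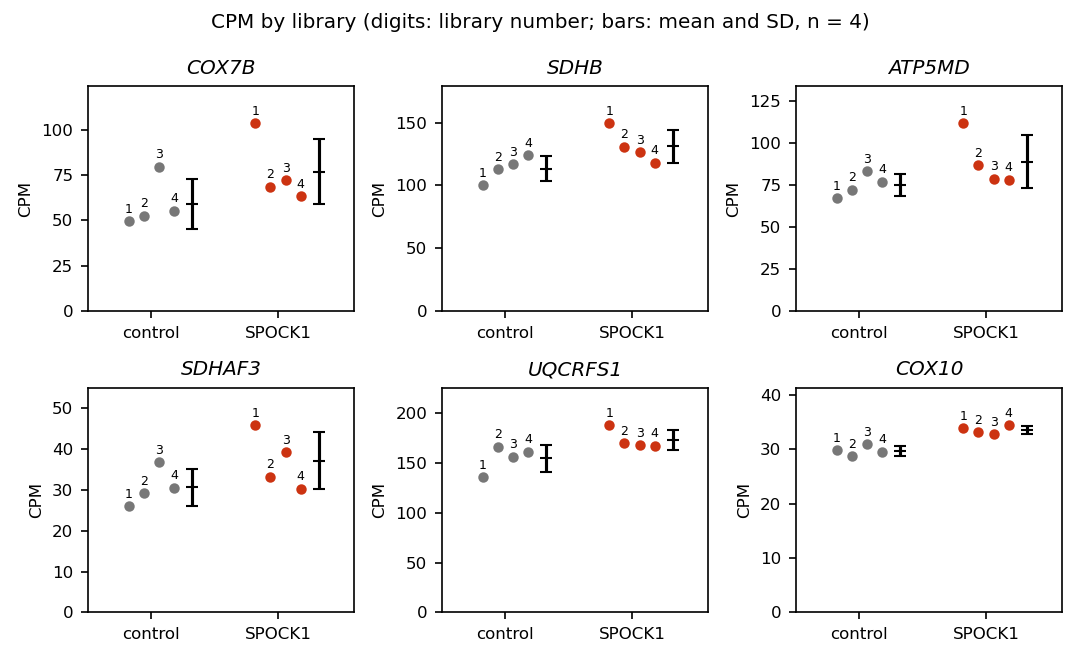
CPM of COX7B, SDHB, ATP5MD, SDHAF3, UQCRFS1 and COX10 in each library, with the library number above its point and bars for the mean and SD of each group (n = 4). SPOCK1 library 1 is the highest point in every panel but COX10, where the SPOCK1 libraries lie between 32.8 and 34.4 CPM, above all controls.

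Complex IV also has tissue-specific isoforms, and SW480 libraries held the widely expressed ones. COX4I1 stood at 259 to 330 CPM in controls and 300 to 365 CPM with SPOCK1 (0.14 ± 0.09), while COX4I2, its lung and hypoxia form, had no count in any library. COX6A2, the heart and muscle form of subunit VIa, also had no count, which allows up to 0.0196 CPM over the controls and 0.0199 CPM over the SPOCK1 libraries, for counting error only. The muscle form COX7A1 had 17 counts in controls and 14 with SPOCK1, the testis forms COX7B2 and COX8C had 0 and 0 in controls and 2 and 6 with SPOCK1, and none of the 3 passed the filter. COX6B2, the testis form of subunit VIb, reached 0.0112% to 0.0806% of COX6B1 per length, and its log2 fold change of −0.37 ± 0.51 was the lowest of all members. NDUFA4L2, a hypoxia-inducible relative of NDUFA4, reached 0.436% to 0.917% of NDUFA4 per length and had 0.18 ± 0.25.

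For NDUFA4 the libraries had 202, 229, 266 and 242 CPM in controls and 364, 256, 243 and 214 CPM with SPOCK1. SPOCK1 library 1 alone lay above every control, and the log2 fold change was 0.20 ± 0.13. COX7A2, a subunit of the complex, spanned 89.7 to 109 CPM in controls and 91.6 to 132 CPM with SPOCK1 (0.07 ± 0.10). COX7A2L, a relative that joins complexes III and IV into supercomplexes, spanned 131 to 160 CPM and 137 to 204 CPM (0.16 ± 0.11). Per length it stood at 43.8% to 57.7% of COX7A2, with controls and SPOCK1 libraries mixed.

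In complex V, the ATP synthase, ATP5MD encodes a small subunit of the membrane part, also called DAPIT (chr10:103389041-103396492, minus strand). It had 67.5, 72.4, 83.5 and 77.0 CPM in control libraries and 112, 87.0, 79.0 and 78.3 CPM in SPOCK1 libraries. SPOCK1 libraries 1 and 2 lay above every control and the other 2 between control libraries 3 and 4. Its log2 fold change was 0.25 ± 0.11, with an unadjusted p of 0.0384 and an adjusted p of 0.335. ATP5MPL, another small membrane subunit, had 62.0, 71.6, 89.7 and 73.4 CPM in controls and 112, 88.7, 79.8 and 70.6 CPM with SPOCK1, at 0.24 ± 0.13 (adjusted p 0.429). The 5 accessory subunits of complex V, these 2 among them, had a median of 0.20.

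The 5 catalytic core subunits of ATP synthase had a median of 0.11 and ranged from −0.06 to 0.21. ATP5F1B had 1646, 1920, 1832 and 2066 CPM in controls and 2251, 2015, 1857 and 1951 CPM with SPOCK1, a log2 fold change of 0.11 ± 0.09. Only SPOCK1 library 1 stood above every control. ATP5F1D was at −0.06 ± 0.09, with 195 to 254 CPM in controls and 205 to 221 CPM with SPOCK1, the lowest value among the members of complex V. ATP5MC1, ATP5MC2 and ATP5MC3 encode the same mature c subunit of the rotor ring from 3 genes. Per length ATP5MC3 gave 43.5% ± 0.341 of their sum in controls and 43.9% ± 2.31 with SPOCK1 (SD, n = 4 each), ATP5MC2 38.1% ± 0.372 and 37.1% ± 2.54, and ATP5MC1 18.5% ± 0.245 and 19.0% ± 0.287. Their log2 fold changes were 0.09 ± 0.09, 0.03 ± 0.08 and 0.11 ± 0.09, and the SDs of the shares were wider with SPOCK1 for ATP5MC2 and ATP5MC3.

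The 13 mRNAs of mitochondrial DNA, which encode the remaining core subunits, did not follow the nuclear genes by library. None was called, their median log2 fold change was 0.02, and they ranged from −0.07 (MT-ND3) to 0.14 (MT-ND1). Their median deviations were −0.13, −0.14, 0.05 and 0.18 in control libraries 1 to 4 and −0.04, 0.05, −0.18 and 0.18 in SPOCK1 libraries 1 to 4. Control library 1 was low for both sets, but SPOCK1 library 1 was not high here.

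Other genes of the pathway were taken from lists, and none of their tested genes was called. Of 41 further subunits and assembly factors 40 were tested, 35 had values above 0, and the median was 0.12. An unadjusted p under 0.05 was reached by 5 of them, all higher with SPOCK1, where 13.7% of all genes had such a p and 5.48% were higher. The smallest p among them was that of COA4, an assembly factor of complex IV, at 0.25 ± 0.08 (edgeR adjusted p 0.195). By library this list also lay lowest in control library 1 (−0.15) and highest in SPOCK1 library 1 (0.19). CYC1, cytochrome c1 of complex III, had 336, 439, 355 and 462 CPM in controls and 427, 390, 357 and 424 CPM with SPOCK1, at 0.01 ± 0.10. CYCS, cytochrome c, had 340 to 359 CPM and 328 to 426 CPM, at 0.12 ± 0.08. Of 26 genes of the tricarboxylic acid cycle and pyruvate dehydrogenase, which supply the electrons, 20 had values above 0 (median 0.07). An unadjusted p under 0.05 was found for 5 of them, again against 13.7% of all genes. Of these 4 were higher with SPOCK1 and PDK4, a kinase that inhibits pyruvate dehydrogenase, was lower, at −0.66 ± 0.30 (edgeR adjusted p 0.338). All SPOCK1 libraries lay above all controls for 2 of the 26 genes of this list and below them for 1, PDK3. Over all genes tested these shares were 3.43% and 4.8%.

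Regulators of mitochondrial biogenesis and transcription had a similar median but not the same order of libraries. Their median deviations were −0.01, −0.09, 0.04 and −0.08 in control libraries 1 to 4. In SPOCK1 libraries 1 to 4 they were 0.21, −0.02, 0.115 and −0.09. SPOCK1 library 1 was again the highest, but control library 1 was not the lowest. Of 23 genes 22 were tested, 17 had values above 0, the median was 0.09, and 1 had an unadjusted p under 0.05 (13.7% of all genes). NRF1 was at 0.08 ± 0.09, GABPA, the DNA-binding subunit of GABP, at −0.07 ± 0.13, and TFAM, which packages and transcribes mitochondrial DNA, at 0.13 ± 0.10. PPARGC1A, a coactivator of NRF1 target genes, was near the limit of counting, with 0.404 to 0.862 CPM in controls and 0.143 to 0.803 CPM with SPOCK1 (−0.21 ± 0.46).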

How the data were processed

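The authors deposited raw counts of RNA-seq reads for each gene in 4 vector control and 4 SPOCK1 libraries. Per the submitters' processing notes the tools were CASAVA, HISAT2 2.0.5 and, for counting, featureCounts 1.5.0-p3. Build, strand setting and the handling of multiply matching reads were not given in the sources used here. All 58735 gene starts and ends equal those of GENCODE release 29 on GRCh38, and coordinates are those deposited. Of the members, 61 share exonic bases with another gene, 33 on the same strand.

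Groups were tested with edgeR 4.0.16 under R 4.3.3 (filterByExpr at 10 counts and a total of 15, TMM factors, quasi-likelihood test without covariates, Benjamini-Hochberg adjustment over 15790 genes). Standard errors were taken from the F statistic. CPM used TMM-scaled library sizes. TPM were computed from counts and the deposited gene lengths. A count of 0 was read as allowing 3 counts per group, for counting error only. The fit was tested on simulated data. DESeq2 1.42.0, limma-voom 3.58.1, other scalings and filters, offsets on GC content and length (natural splines with 5 degrees of freedom), a replicate block and each library left out were alternatives. Restricting the libraries to 2 and 4, to 1 and 3, or to all but library 1 of both groups was chosen after seeing the data. The members, lists and roles were chosen with earlier results of these data known.

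Named genes were, in each complex, the 2 tested members with the smallest p and the 2 with the highest control TPM, the largest rise and fall by fold change among subunits and among assembly factors, every isoform or copy, and CYC1, CYCS, PPARGC1A, NRF1, GABPA and TFAM. Genes outside this rule are given as examples.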

Additional observations from a re-analysis of the deposited data

Results flagged for a closer look

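Among 88 groups of 4 libraries checked, 3 had 1 library far from the other 3, and about 1 in 20 groups is picked by chance. NDUFAF8 had 52.1 CPM in SPOCK1 library 2, with the other SPOCK1 libraries between 45.2 and 46.3 CPM. All 4 lay above every control, so the library does not decide the lack of overlap. UQCRFS1 had 188 CPM in SPOCK1 library 1, with the others between 167 and 170 CPM, a further value in which that library stood high. NDUFC2 had 17.1 CPM in SPOCK1 library 2, with the others between 13.3 and 13.9 CPM, below every control.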

How the results depend on the processing

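No member was called under any alternative except COX7B with no filter beyond 1 count, which made 1 rise. Over all genes the count of 165 calls was 378 with DESeq2, 399 with no filter beyond 1 count, 618 with offsets on GC content and length, 8 with libraries 1 and 3 only, and 89 to 237 with 1 library left out (96 without control library 2, 90, 89 and 237 without SPOCK1 libraries 2, 3 and 4). The replicate block gave 115 calls and 0 members. Same-numbered libraries correlated at −0.07 to 0.08, and 1 of the 4 controls correlated best with its own number. Control libraries 1 and 3 correlated best with SPOCK1 libraries 3 and 1 (0.12 and 0.16), and control library 2 with SPOCK1 library 4 (0.105). The difference by GC content was above 0 in libraries 1 and 3 of both groups and below 0 in libraries 2 and 4. Whether the numbers mark a shared batch was not tested. Leaving out library 1 of both groups turned the members' median to −0.0076 and the subunits' to −0.0199 (−0.0032 with libraries 2 and 4 only); with 1 library left out these medians were 0.0448 to 0.144 and 0.0335 to 0.135.

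Among single genes, offsets turned the sign of SDHA (0.0012), ATP5F1D (0.0386), SDHAF1 (0.0244) and COX7A2 (−0.0052). Libraries 2 and 4 only, and library 1 of both groups left out, gave respectively −0.0717 and −0.0598 for NDUFB7, −0.109 and −0.0781 for NDUFB11, −0.0429 and −0.0232 for UQCRC1, −0.0732 and −0.069 for UQCRQ, −0.0554 and −0.0647 for COX6B1, −0.0366 and −0.0368 for COX8A, −0.0929 and −0.0983 for COX7A2, −0.0020 and −0.0088 for COX7A2L, −0.0052 and −0.0492 for NDUFA4, −0.0094 and −0.0182 for ATP5MC2, −0.0077 and −0.0222 for ATP5MC3, and −0.147 and −0.0995 for CYC1. ATP5F1B had −0.0092 with libraries 2 and 4, and UQCRH −0.0096 without library 1 of both groups. Libraries 1 and 3 only gave 0.0861 for ATP5F1D and 0.0411 for PPARGC1A. With 1 library left out the sign turned for 12 of the genes named by the rule, with ranges of −0.04 to 0.0764 (NDUFB11), −0.0085 to 0.117 (UQCRC1), −0.0092 to 0.0801 (COX8A), −0.0001 to 0.127 (COX6B1), −0.0382 to 0.147 (COX7A2), −0.0368 to 0.0741 (ATP5MC2), −0.121 to 0.0055 (ATP5F1D), −0.102 to 0.0567 (SDHAF1), −0.688 to 0.0295 (COX6B2), −0.0665 to 0.0843 (CYC1), −0.146 to 0.0596 (GABPA) and −0.59 to 0.0903 (PPARGC1A). Over all 103 members, the number above 0 went from 93 to 79 without control library 1 and to 76 without SPOCK1 library 1. The causes were not tested. The 5 widest intervals were those of COX6B2, COX20, NDUFV2, COX16 and NDUFA4L2, all under 2 CPM in controls.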

Other observations

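Some members, both subunits and the assembly factors COX16 and COX20, were counted at levels far below other genes of the same complex. NDUFV2 and NDUFV1 encode neighbouring catalytic subunits of complex I, and NDUFV2 had 123 counts over the 4 controls, a mean of 0.806 CPM, where NDUFV1 had 314 CPM. The deposited coordinates place 28.4% of the exonic bases of NDUFV2 under AP005263.1 on the same strand. NDUFA7 had 37 counts in controls and 22 with SPOCK1 and was not tested, with 32.3% of its exonic bases shared on the same strand. NDUFB8 had 3.83 CPM and 33.8% shared, COX16 1.05 CPM and 36.02%, and NDUFA13 1.44 CPM and 21.0%. COX20, at 0.482 CPM, shares 72.0% of its exonic bases with HNRNPU on the other strand. A shared exon did not always go with a low value, since COX8A had 125 CPM with 34.5% shared on the same strand. How reads on shared exons were assigned is not given in the sources used here, and the part of the overlaps in these levels was not tested. These genes were picked after their values were seen, and their levels are uncertain.

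Groups lay apart for 4 of the 103 tested members, namely 3 of the 22 assembly factors and 1 of the 76 tested subunits. Of the 40 tested genes of the wider list 4 had groups apart, UQCC1, SCO1, COA4 and ACAD9, all higher with SPOCK1 and none called. Such a lack of overlap in that direction held for 3.43% of all genes. For UQCC1, COA4 and ACAD9 control library 1 was the lowest and SPOCK1 library 1 the highest of all 8, which was not so for SCO1. SCO1, a copper chaperone of complex IV, had 72.5 to 78.3 CPM in controls and 82.4 to 94.3 CPM with SPOCK1, a log2 fold change of 0.20 ± 0.08 (edgeR adjusted p 0.268). ACAD9, an assembly factor of complex I, had 78.0 to 86.6 CPM in controls and 88.1 to 91.9 CPM with SPOCK1, at 0.12 ± 0.07 (adjusted p 0.503). Assembly factors were not compared with subunits by a test.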
